A study of Rattus norvegicus with 10 samples.

Results

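This account covers 8 genes whose transcripts were strongly raised in cultured rat Sertoli cells given follicle-stimulating hormone (FSH) and which lie outside the pathways that FSH is best known for. They are Dgcr6, Emd, Cd24, Ckb, Ephb3, Kazn, Wfdc1 and Fam229a. They were selected on their intensities in these same arrays, so their changes against untreated cells are given as a description, with no test. Every probe set that the probe annotation assigns to exactly 1 of these symbols was taken, which gave 12 of the 8740 probe sets that are not controls, for 8 of the 4736 genes that have such a probe set: 3 for Cd24, 2 each for Emd and Ckb, and 1 for each of the others. Of the 12, 11 were bright enough for the fit across the whole array. The exception was the Kazn probe set, whose mean intensity over all arrays was 13.5, under the minimum of 31.9.

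Sertoli cells were taken from 20-day-old rats and cultured. RNA was measured on 10 arrays: untreated cultures at 0 h, and cultures treated with FSH for 2, 4, 8 and 24 h, with 2 arrays (n = 2), numbered replicate 1 and replicate 2, in each of the 5 groups. Whether the 2 arrays of a group came from different cultures is not in the labels, nor are a strain or an FSH dose, so the errors and p-values below cover array-to-array spread that may be technical. No untreated culture was labelled later than 0 h, so FSH and time in culture cannot be told apart. Intensities below are the deposited values after each array was scaled to the same 75th percentile of 107, and 13.4 was the floor under which values were raised before log2 was taken. A fold change against a group with both arrays under the floor is a lower bound, given as "at least". Folds are taken between means of log2 values, so they can differ from the ratio of the mean intensities.

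The labelled cell type was checked against its markers. Of 11 Sertoli markers listed, the 8 with a probe set were all tested and none lay under the floor on any array. Clu, the abundant secreted clusterin, ranged from 6779 to 13780, and Fshr, the FSH receptor, from 56.6 to 194.6. For 13 germ cell markers the summed level lay between 398 and 1110 on arrays numbered 1, and between 2626 and 2997 on those numbered 2. The sums of 3 Leydig cell markers stayed within 27.2 to 97.9, of 3 endothelial markers within 38.4 to 105.7 and of 3 macrophage markers within 83.2 to 144.8. The sum of 6 peritubular myoid markers was 773 to 1492 on 9 arrays and 3445 on 24 h replicate 1. Control replicate 1 stood apart in its spiked control transcript CreX, whose 3' probe set read 16221 against 2815 to 9818 on the other arrays.

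FSH acts on Sertoli cells through the receptor Fshr, which couples to Gs and raises cAMP. Protein kinase A then phosphorylates CREB, which binds the cAMP response element (CRE) in the promoters of its targets. The proteins of the genes described here have varied roles. EphB3 is a receptor tyrosine kinase for ephrins on neighbouring cells, and CD24 is a small, heavily glycosylated protein held on the cell surface by a lipid anchor. Emerin, from Emd, sits in the inner nuclear membrane and binds the lamina, while kazrin, from Kazn, is tied to cell junctions and the cytoskeleton. The brain-type creatine kinase, from Ckb, buffers ATP in the cytosol. Wfdc1 encodes a secreted protein with a whey acidic protein domain, and the proteins of Dgcr6, named for the DiGeorge syndrome critical region, and Fam229a are little characterised.

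RefSeq promoter windows, running from 250 bases before to 50 bases after an annotated start on assembly GRCr8, were found for 6 of the 8 genes. None was found for Kazn or Wfdc1. The CRE core, TGACG, was searched on both strands because FSH works through cAMP. It was present in 4 of the 6 windows, and 21.2% of all 33469 windows in the table hold at least 1. The 4 windows are printed 5′ to 3′ on the strand of the gene, with each core, on either strand, in capitals.
Emd, chrX:157190188-157190487, plus strand: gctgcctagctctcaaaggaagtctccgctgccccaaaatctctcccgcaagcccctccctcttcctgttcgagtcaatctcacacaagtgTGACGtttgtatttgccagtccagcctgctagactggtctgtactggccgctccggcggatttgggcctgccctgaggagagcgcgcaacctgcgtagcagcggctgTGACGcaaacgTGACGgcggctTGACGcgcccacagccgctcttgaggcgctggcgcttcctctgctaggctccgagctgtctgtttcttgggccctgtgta
Dgcr6, chr11:96437020-96437319, minus strand: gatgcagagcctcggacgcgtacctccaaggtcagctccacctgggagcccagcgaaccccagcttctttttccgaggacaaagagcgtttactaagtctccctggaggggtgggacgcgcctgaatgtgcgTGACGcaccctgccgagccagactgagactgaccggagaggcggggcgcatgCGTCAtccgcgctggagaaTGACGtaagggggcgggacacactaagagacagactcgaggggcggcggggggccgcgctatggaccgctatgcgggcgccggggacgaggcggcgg
Cd24, chr20:48656227-48656526, plus strand: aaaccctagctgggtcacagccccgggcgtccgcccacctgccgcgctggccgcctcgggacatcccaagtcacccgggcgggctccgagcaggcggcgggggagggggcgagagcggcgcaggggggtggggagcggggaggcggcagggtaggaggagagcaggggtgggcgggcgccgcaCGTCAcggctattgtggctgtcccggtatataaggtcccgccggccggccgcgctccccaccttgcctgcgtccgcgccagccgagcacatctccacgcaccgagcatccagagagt
Fam229a, chr5:147113804-147114103, plus strand: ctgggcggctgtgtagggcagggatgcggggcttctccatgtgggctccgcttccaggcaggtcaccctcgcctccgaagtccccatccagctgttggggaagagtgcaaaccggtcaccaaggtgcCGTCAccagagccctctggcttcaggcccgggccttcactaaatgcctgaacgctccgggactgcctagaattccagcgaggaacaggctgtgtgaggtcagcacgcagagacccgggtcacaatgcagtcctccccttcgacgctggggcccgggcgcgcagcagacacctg

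The Emd window held 4 CRE cores, all on the strand of the gene, beginning 159, 52, 41 and 30 bases before the start, so that 3 of them lay at even distances close to it. The Dgcr6 window held 3, beginning 118, 66 and 47 bases before the start, of which the middle one was on the other strand. Windows with 3 or more made up 1.11% of all, and those with 4 or more 0.236%. Cd24 had 1 CRE core, 67 bases before the start, and Fam229a had 1, at 123 bases. The core holds a CG pair, and the members' windows were rich in these, with 18 to 34 each against a median of 7 over all windows. Among windows at or above that median, 2.04% had 3 or more CRE cores. All 6 windows lay well above that cut, so this share does not match them in CG pairs. The share with at least 1 core was not taken among CG-rich windows. None of the 6 windows held the full CRE TGACGTCA (1.83% of all windows, and a sequence that contains the core on both strands), the AP-1 site TGANTCA (7.33%), the site AAAGGTCA bound by Nr4a receptors (1.43%) or the E-box CACGTG (6.42%). The Ckb window had a TATA box, TATAAA, beginning 75 bases before the start, between CCAAT boxes at 93 and 63 bases. The Ephb3 window had 1 CCAAT box, at 237 bases. TATAAA was found in 14.2% of all windows and CCAAT in 37.5%. These matches describe letters in 1 window for each gene and say nothing of binding. The annotated extents of Dgcr6 and Cd24 reach beyond the start used.

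**Figure D1:**
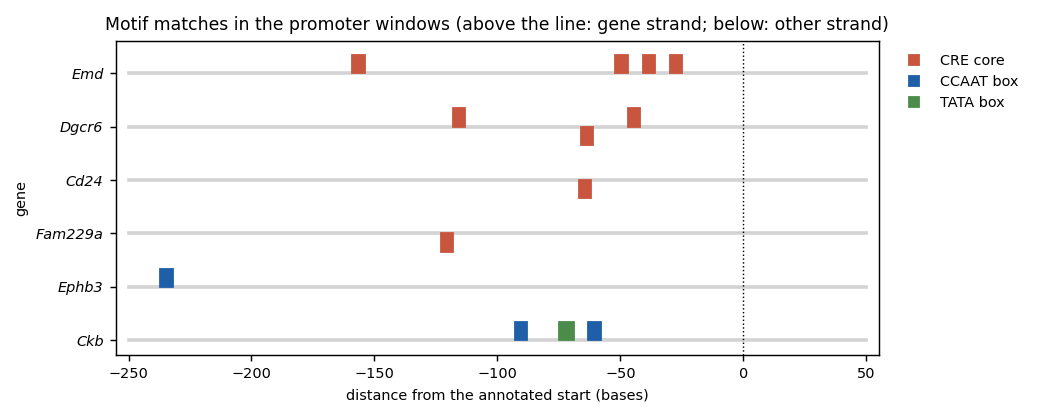
Matches to the motifs searched in the promoter windows of 6 genes, against distance in bases from the annotated start (dotted line). Boxes above each line are on the strand of the gene and boxes below it on the other strand. Emd has 4 CRE cores, Dgcr6 3, and Cd24 and Fam229a 1 each, while Ephb3 and Ckb have none.

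The genes were at their highest at different times. Ephb3, Emd and Kazn had their highest mean at 4 h, Dgcr6, Cd24 and Ckb at 8 h, and Wfdc1 and Fam229a at 24 h. Where a gene had more than 1 probe set, all of them had their highest log2 change at the same time. Over the 11 tested probe sets the median log2 change against 0 h was 1.25 at 2 h, 2.74 at 4 h, 3.38 at 8 h and 1.25 at 24 h, beside medians of -0.02, -0.03, -0.02 and 0.02 over all 4439 tested probe sets. Both FSH arrays lay above both control arrays for 7 of the 11 at 2 h, where 11.8% of all tested probe sets did so. They did for 11 of 11 at 4 h (15.0% of all), 10 at 8 h (17.7%) and 8 at 24 h (15.8%). The genes were chosen for such rises, so nothing is read from these counts. Without control replicate 1 the count at 2 h was 11, but leaving out an array can only keep or raise it.

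**Figure D2:**
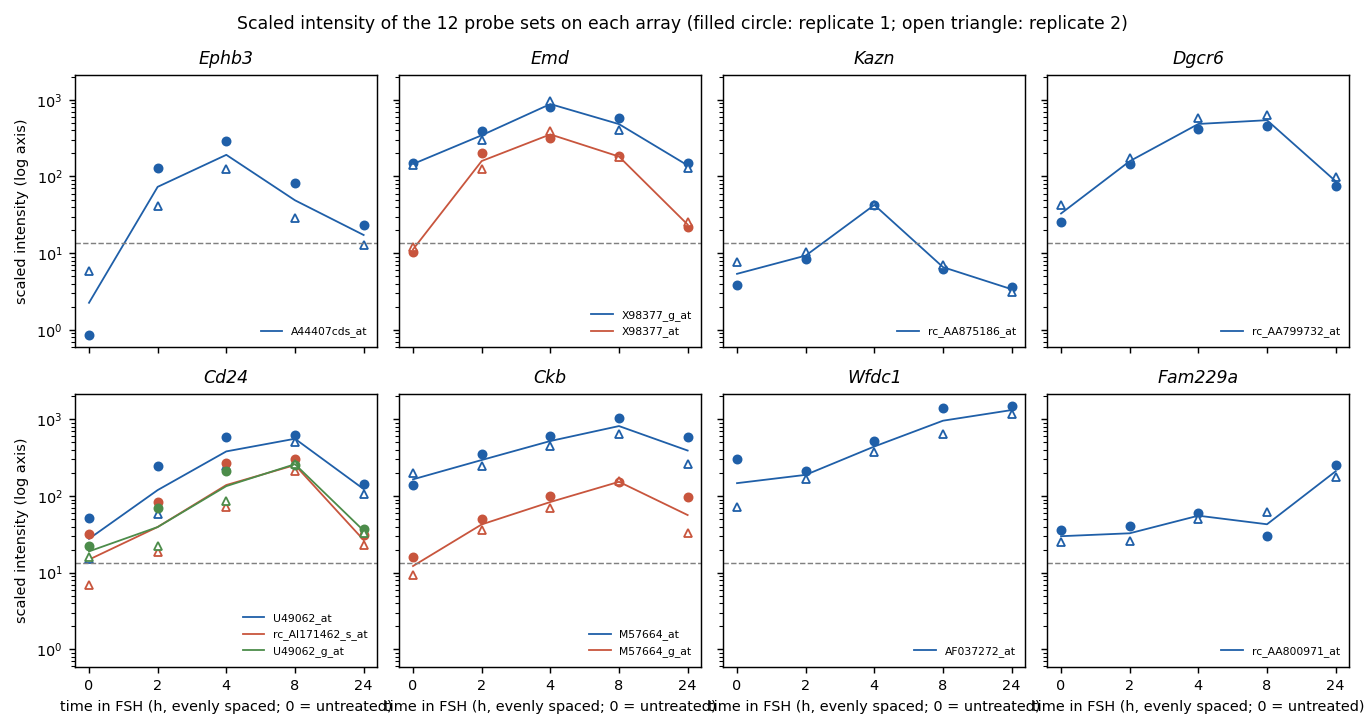
Scaled intensity (log axis) of the 12 probe sets on each of the 10 arrays against time in FSH, 1 panel for each gene. Circles are replicate 1, triangles replicate 2, lines join geometric means of the 2 arrays, and the dashed line is the floor of 13.4. Ephb3, Emd and Kazn are highest at 4 h, Dgcr6, Cd24 and Ckb at 8 h, and Wfdc1 and Fam229a at 24 h.

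Ephb3, the receptor, was measured by 1 probe set. Its intensities were 0.866 and 5.86 on replicates 1 and 2 at 0 h, both under the floor. They were 129.5 and 41.5 at 2 h, 293 and 125.3 at 4 h, 83.4 and 28.7 at 8 h, and 23.4 and 12.7 at 24 h. All FSH arrays thus lay above both controls in intensity, although the 24 h replicate 2 array was itself under the floor. The level at 4 h was at least 14.3-fold that at 0 h (log2 change 3.83 ± 0.71, SE), and it was at least 5.46-fold at 2 h and at least 3.64-fold at 8 h. The log2 difference from 4 to 8 h was -1.97, with -1.81 within replicate 1 and -2.13 within replicate 2, so Ephb3 was already lower at the time when Dgcr6, Cd24 and Ckb were highest. With the floor lowered to the 75th percentile divided by 16 the log2 change at 4 h was 4.83, and with it raised to the percentile divided by 4 it was 2.83, since the floor sets the size of this bound.

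Cd24 was measured by 3 probe sets, 2 of them with 1 shared sequence identifier in their names. The brightest, U49062_at, gave 51.4 and 14.9 at 0 h, 243 and 58.8 at 2 h, 585 and 249.7 at 4 h, 625 and 499 at 8 h, and 141.8 and 107.2 at 24 h on replicates 1 and 2. Each FSH array was above both controls. The mean went from 33.2 ± 25.8 (SD) to 562 ± 89.2 at 8 h, which is 20.2-fold (log2 change 4.34 ± 0.76, SE). Without control replicate 1 the log2 change at 8 h was 5.23, and without control replicate 2 it was 3.44. At 24 h the change was 2.16 ± 0.76, or 3.05 and 1.26 without the one or the other. The other 2, U49062_g_at and rc_AI171462_s_at, were dimmer, with 8 h means of 260 ± 4.15 and 257 ± 63.7 and log2 changes there of 3.78 ± 0.59 and 3.61 ± 0.81. For rc_AI171462_s_at 1 control array was under the floor. The log2 values of each correlated with those of the brightest at r = 0.947 and 0.928 over the 10 arrays, a description of arrays that share the same time course. After group means were removed, r was 0.900 and 0.961, so that the 3 probe sets also shared the difference between the 2 arrays of a group. They differed in how far the level was from control at 24 h, with log2 changes of 2.16, 0.90 and 0.36. For rc_AI171462_s_at the last value was -0.27 without control replicate 2, so no direction is given for it at 24 h.

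Emd, the emerin gene, was measured by 2 probe sets with 1 shared sequence identifier in their names. On X98377_at the intensities were 10.4 and 12.1 at 0 h, both under the floor, then 201 and 125.9 at 2 h, 318 and 395 at 4 h, 184 and 180.1 at 8 h, and 21.6 and 25.8 at 24 h. Every FSH array was above both controls, and the 2 h and 8 h arrays were below the 4 h arrays. The level was at least 11.8-fold, 26.4-fold, 13.6-fold and 1.76-fold that at 0 h at 2, 4, 8 and 24 h. On X98377_g_at the intensities were 147.9 and 143.1 at 0 h, 398 and 299 at 2 h, 806 and 963 at 4 h, 584 and 399 at 8 h, and 151.1 and 129.2 at 24 h. Here the 24 h arrays overlapped the controls, and the fold change at 4 h was 6.06 (log2 change 2.60 ± 0.34, SE). By their means, both probe sets ran from highest at 4 h through 8 and 2 h to 24 h. Their log2 values correlated at r = 0.952 over the 10 arrays. After group means were removed, r was 0.53, lower than for the Cd24 probe sets, with both controls of X98377_at at the floor. On X98377_at replicate 1 was higher at 2 h (201) than at 8 h (184), so the order of these times is not settled there. Only X98377_at was above control at 24 h. The changes of the 2 probe sets were unlike in size, X98377_at having a log2 change larger by at least 2.32 at 2 h, 2.12 at 4 h and 2.03 at 8 h.

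Kazn, the kazrin gene, was dim on every array. Its 1 probe set read 3.79 and 7.63 at 0 h, 8.31 and 10.4 at 2 h, 42.4 and 42.6 at 4 h, 6.25 and 6.91 at 8 h, and 3.62 and 3.16 at 24 h. Only the 4 h arrays were above the floor, at least 3.16-fold over 0 h, and at the other times no fold can be given. The 2 arrays at 4 h differed by a log2 value of 0.01. This probe set failed the intensity minimum and entered no test.

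Ckb, the creatine kinase gene, was measured by 2 probe sets with 1 shared sequence identifier in their names. M57664_at gave 137.7 and 197.8 at 0 h, 355 and 244.7 at 2 h, 610 and 446 at 4 h, 1050 and 637 at 8 h, and 583 and 263.6 at 24 h. All FSH arrays lay above both controls, and the replicate 1 array was the brighter at each time after 0 h. The mean at 8 h was 843 ± 292 (SD) against 167.8 ± 42.5, a fold change of 4.95 (log2 change 2.31 ± 0.47, SE). The dimmer M57664_g_at had means of 12.7 ± 4.74 at 0 h, with 1 array under the floor, and 153 ± 3.92 at 8 h, a log2 change of 3.38 ± 0.50. The log2 values of the 2 probe sets correlated at r = 0.956 over the 10 arrays, and at 0.75 after group means were removed. At 24 h the log2 changes were 1.25 ± 0.47 and 1.95 ± 0.50 (SE), and the 2 arrays lay far apart. On M57664_at the change at 24 h was 2.08 within replicate 1, against 2.93 at 8 h, and 0.41 within replicate 2, against 1.69 at 8 h. Without 24 h replicate 1, the array with the highest sum of myoid markers, the change at 24 h was 0.68 on M57664_at and 1.18 on M57664_g_at. The part of those cells in the Ckb level was not tested. On M57664_g_at the floor raised to the percentile divided by 4 brought the change at 8 h to 2.51.

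Wfdc1, the gene of the secreted protein, gave 302 and 71.9 at 0 h on replicates 1 and 2, 213 and 167.5 at 2 h, 519 and 378 at 4 h, 1422 and 649 at 8 h, and 1474 and 1187 at 24 h. The 2 h arrays lay between the controls, and from 4 h on both FSH arrays were above both controls. The mean at 24 h was 1331 ± 203 (SD) against 186.8 ± 162, a fold change of 8.99 (log2 change 3.17 ± 0.64, SE). From 8 to 24 h the log2 difference was 0.46, with 0.05 within replicate 1 and 0.87 within replicate 2. Before scaling, replicate 1 read 1365 at 8 h and 1343 at 24 h, so the higher mean at 24 h rests mainly on replicate 2. The 2 control arrays differed by a log2 value of 2.07. Without control replicate 1 the log2 change at 24 h was 4.20, and without control replicate 2 it was 2.13, below that of Fam229a under the same omission (2.55). At 2 h it was 0.36 in all, 1.39 without control replicate 1 and -0.68 without control replicate 2, so no direction is given for 2 h.

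Dgcr6 was measured by 1 probe set, with 25.4 and 42.6 at 0 h, 143.6 and 174.7 at 2 h, 411 and 571 at 4 h, 460 and 640 at 8 h, and 76.3 and 98.6 at 24 h. All FSH arrays lay above both controls, and the replicate 2 array was the brighter at each of the 5 times. Dgcr6 had 56.1% of its highest log2 change by 2 h and was at a plateau between 4 and 8 h, with log2 changes of 3.88 ± 0.38 (SE) and 4.04 ± 0.38, or 14.7-fold and 16.5-fold. From 8 to 24 h the log2 difference was -2.65, with -2.59 within replicate 1 and -2.70 within replicate 2. At 24 h it was still 2.64-fold the control level.

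Fam229a was the latest of the 8. It gave 36.0 and 24.8 at 0 h, 40.8 and 26.2 at 2 h, 60.3 and 50.9 at 4 h, 29.8 and 61.6 at 8 h, and 253 and 174.7 at 24 h. At 2 and 8 h the FSH arrays overlapped the controls, at 4 h they lay just above them, and at 24 h both were several times higher. The mean went from 30.4 ± 7.91 (SD) to 214 ± 55.7 at 24 h, which is 7.03-fold (log2 change 2.81 ± 0.46, SE), and the log2 change was 2.81 within each replicate number. From 8 to 24 h its log2 difference was 2.30, while that of every Ephb3, Emd, Dgcr6, Cd24 and Ckb probe set was below 0.

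**Figure D3:**
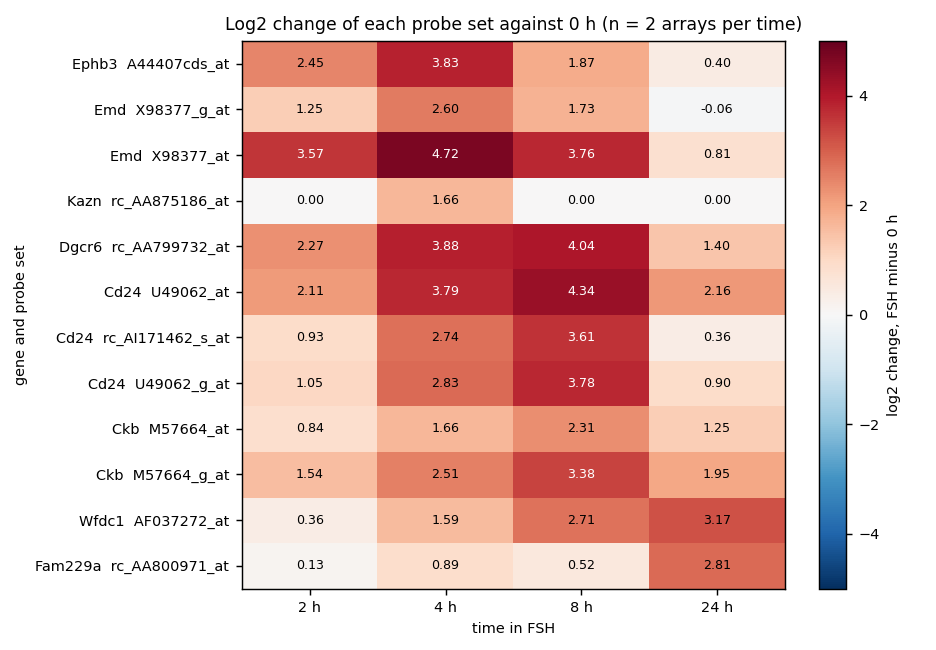
Log2 change of each probe set at 2, 4, 8 and 24 h against 0 h, from 2 arrays at each time, with the floor applied. Red is higher in FSH. The highest value lies at 4 h for Ephb3, Emd and Kazn, at 8 h for Dgcr6, Cd24 and Ckb, and at 24 h for Wfdc1 (3.17) and Fam229a (2.81).

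The arrays of the 2 replicate numbers were compared directly, because the choice of the genes did not use these numbers. By limma with time in the model, 3 of the 11 tested probe sets differed after Benjamini-Hochberg adjustment, where 15.2% of all tested probe sets did, and 6 of the 11 had an unadjusted p under 0.05, where 30.1% of all did. Cd24 was lower in replicate 2 on 2 of its 3 probe sets. The log2 difference was -1.16 ± 0.27 (SE, limma adjusted p = 0.0208) on U49062_at and -1.26 ± 0.30 (limma adjusted p = 0.0201) on rc_AI171462_s_at, with replicate 2 the lower at 5 of 5 times on both. The third, U49062_g_at, had -0.72 ± 0.28 (limma adjusted p = 0.119). Ephb3 was lower in replicate 2 by a log2 difference of -1.04 ± 0.29 (limma adjusted p = 0.0388), at 4 of 4 times with an array above the floor. The floor sets part of this estimate, its error and its p. The 0 h difference entered as 0, since both controls were at the floor, and that at 24 h (-0.80) was limited by it. The calls depended on single arrays. Both Cd24 calls were lost when either 2 h array or either 4 h array was left out, and the Ephb3 call when any FSH array was left out. All 3 were lost without the intensity minimum, where 1.91% of all probe sets differed. With the values as deposited Ephb3 was lost (0.0518) and Dgcr6 was called (0.0467). With the floor raised to the percentile divided by 4, rc_AI171462_s_at (0.0623) and Ephb3 (0.0698) were lost and Wfdc1 was called (0.0491). These p-values are limma's, adjusted. Wfdc1 had -0.86 ± 0.26 (limma adjusted p = 0.0555), lower in replicate 2 at 5 of 5 times, and Dgcr6 0.47 ± 0.17 (0.0885), higher in replicate 2 at 5 of 5 times. Ckb, Emd and Fam229a did not pass the threshold either, with limma adjusted p from 0.202 to 0.953, although M57664_at of Ckb was called without control replicate 1 (-0.71, adjusted p = 0.0174) or control replicate 2 (-0.71, 0.0177).

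For Cd24 the gap between the numbers varied with time. On U49062_at replicate 2 minus replicate 1 was -1.79 at 0 h, -2.05 at 2 h, -1.23 at 4 h, -0.32 at 8 h and -0.40 at 24 h, and on rc_AI171462_s_at it was -1.26, -2.20, -1.92, -0.51 and -0.43. The arrays of both numbers were thus closer at 8 and 24 h than at 2 and 4 h on both probe sets. With 1 array of each number at each time this difference was not tested. Cell type markers moved with the numbers as well. Of 7 germ cell markers tested, 4 were higher and 0 lower in replicate 2 by limma, among them Ldhc, the lactate dehydrogenase of sperm-forming cells (log2 difference 3.22 ± 0.43, SE, adjusted p = 0.00189), and Hspa2, a chaperone of meiotic cells (2.44 ± 0.24, adjusted p = 0.000467). Of 8 Sertoli markers tested, 4 were lower and 0 higher, namely Fshr, Inha, Wt1 and Gata4. The part of the cell mixture in the Cd24 and Ephb3 differences was not tested, and in bulk RNA fewer cells of a type and less RNA in each cell cannot be told apart.

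**Figure D4:**
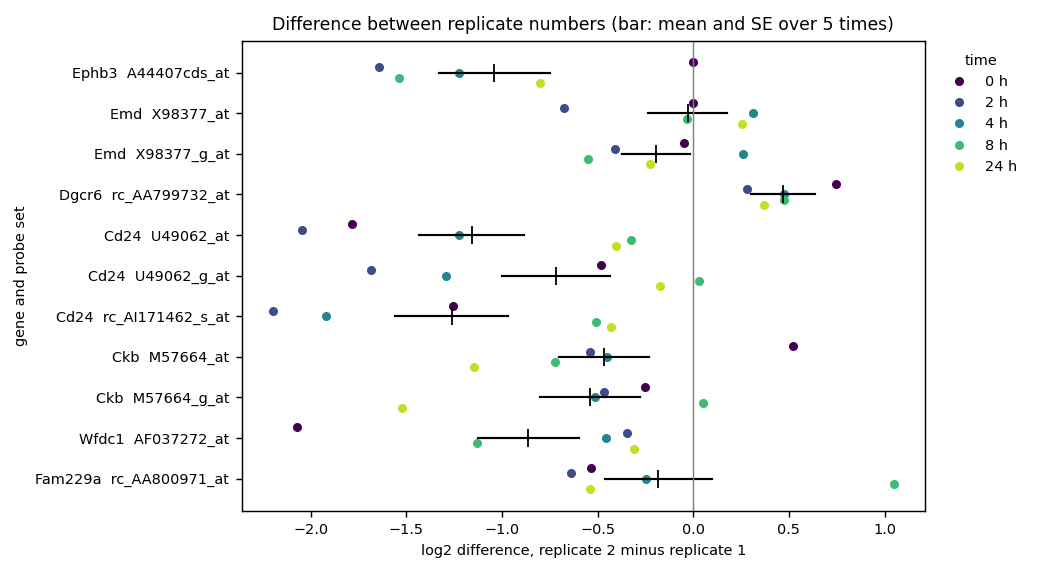
Log2 difference of replicate 2 minus replicate 1 for the 11 tested probe sets. Points are single times, 1 array of each number at each, and the black bar is the mean over the 5 times with its limma SE. Cd24 and Ephb3 lie mostly below 0, with means of -1.26 to -0.72 for Cd24 and -1.04 for Ephb3, and Dgcr6 lies above 0 at all 5 times.

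Genes linked to the members by family or function, and the genes that lie next to the members in the genome, were then examined. Lists of Eph receptors and ephrins, creatine and adenylate phosphotransfer, the nuclear envelope and lamina, plakins and the desmosome, whey acidic protein and Kunitz inhibitors, and lipid-anchored surface proteins with CD24 partners were used, together with the 5 nearest protein-coding genes on either side of each member. The members themselves were left out, and 39 such genes were tested, each by its brightest tested probe set. By limma, 0 of the 39 passed an adjusted p of 0.05 at 2, 4, 8 or 24 h, where 0.676%, 0.856%, 0.766% and 0% of all tested probe sets did. At an unadjusted p under 0.05 there were 1, 6, 3 and 2 of 39, where 4.57%, 7.75%, 9.30% and 4.60% of all tested probe sets were. Their median log2 changes were 0.00, 0.01, -0.16 and -0.02, beside -0.02, -0.03, -0.02 and 0.02 over all tested probe sets.

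Ephb1, another EphB receptor, had a log2 change of -0.86 ± 0.35 at 4 h (SE, limma adjusted p = 0.522) and -1.03 ± 0.35 at 24 h (0.996), and Efna1, an ephrin ligand, 0.52 ± 0.40 at 4 h (0.999). These were the 2 tested of 8 Eph and ephrin genes on the array. Of the 6 nuclear envelope genes tested, Lmnb1, which encodes lamin B1, had 1.60 ± 0.45 at 4 h (limma adjusted p = 0.228). Tor1aip1, whose product LAP1 binds lamins, had 1.02 ± 0.31 (0.267), and Lmna, the lamin A and C gene, 0.05 ± 0.41 (0.999). Lbr had 0.59 ± 0.74 (0.999), Lemd2 0.02 ± 0.35 (0.999) and Tmpo -0.74 ± 0.46 (0.914) at 4 h, so the list had no shared direction there. At 24 h Lemd2 had 1.04 ± 0.35 (limma adjusted p = 0.996). The 5 genes of creatine and adenylate phosphotransfer had log2 changes from -0.85 to 0.30 at 8 h, when Ckb was highest. The 3 plakin and desmosome genes lay between -0.81 and 0.09 at 4 h, when Kazn was highest. Among them Jup, which encodes plakoglobin of cell junctions, had -1.40 ± 0.44 at 8 h (SE, limma adjusted p = 0.297, and 0.0769 with the replicate block). The 2 inhibitor genes, Tfpi and Spint2, were at -0.36 and 0.01 at 24 h, when Wfdc1 was highest. Both are Kunitz inhibitors, so no other gene with a whey acidic protein domain from the list was tested. The 7 surface protein genes (Prnp, Selp, L1cam, Alcam, Cd9, Cd63 and Cd81) lay between -0.53 and 0.22 at 8 h. Of these, only Prnp encodes a lipid-anchored protein.

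Of the 80 neighbouring genes, 18 had a probe set with a single symbol and 14 were tested. The largest change at 4 h relative to its error was that of Polr2h, which encodes a subunit shared by the nuclear RNA polymerases and is the fifth protein-coding gene on one side of Ephb3. Its brightest probe set gave 195.7 and 221.6 at 0 h, 368 and 253 at 2 h, 660.5 and 605 at 4 h, 296 and 266 at 8 h, and 182.2 and 174.8 at 24 h, so that it was highest at 4 h, as Ephb3 was. The log2 change at 4 h was 1.60 ± 0.32 (SE, limma adjusted p = 0.0622). It passed the threshold with the replicate number as a block (adjusted p = 0.0119) and without the intensity minimum (0.0388). A second Polr2h probe set had a log2 change of 1.88 at 4 h. Other neighbours had values of similar size that did not pass the threshold. Taf1c, near Wfdc1, had 1.75 ± 0.69 at 4 h (SE, limma adjusted p = 0.505) and 1.51 ± 0.69 at 8 h (0.557), with 1 control array under the floor. Bend3, near Cd24, had 1.53 ± 0.48 at 2 h (limma adjusted p = 0.511) and 1.41 ± 0.48 at 4 h (0.355), and Ctrc, a pancreatic protease gene near Kazn, 1.47 ± 0.72 at 4 h (0.735). For Dgcr6 the 1 tested neighbour, the mitochondrial citrate carrier gene Slc25a1, had 0.07 ± 0.52 at 4 h (limma adjusted p = 0.999). For Emd 2 neighbours were tested. Atp6ap1, a subunit gene of the proton pump of acidic organelles, had -0.19 ± 0.35 (limma adjusted p = 0.999), and the cone opsin gene Opn1mw -0.74 ± 0.34 (0.687).

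The genes whose log2 values followed each member most closely over the 10 arrays were found among all tested single-symbol probe sets, outside the members, with the brightest probe set of each member as the pattern. Dgcr6 was followed by Fdx1 (r = 0.972), the electron donor of steroid-making mitochondrial enzymes, Plat (0.969), the tissue-type plasminogen activator, and Mvk (0.968), the mevalonate kinase of cholesterol synthesis. The log2 changes of Fdx1 were 1.88, 3.32, 3.32 and 1.29 at 2, 4, 8 and 24 h beside 2.27, 3.88, 4.04 and 1.40 for Dgcr6. Emd was followed by Traf3ip2 (0.963), an adaptor in interleukin-17 signalling, Crem (0.957), the source of cAMP-inducible repressors of transcription, and Phaf1 (0.956). Phaf1 also came first for Ephb3 (0.938), followed by Oxnad1 (0.937) and Tpst2 (0.933), an enzyme that sulfates tyrosines of secreted proteins. Phaf1 went from a mean of 16.9 at 0 h to 148.8 at 4 h and 9.74 at 24 h.

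Cd24 was followed by Inha (r = 0.950), the inhibin alpha subunit, Tor1aip1 (0.948, on another probe set than the one above) and Por (0.945), which passes electrons to cytochrome P450 enzymes. For Inha this was a probe set with log2 changes of 0.90, 1.97, 2.25 and 1.16. The Tor1aip1 probe set had 1.10 at 4 h and 1.30 at 8 h. The brighter Tor1aip1 probe set had 1.02 and 0.57, so it was not highest at 8 h as Cd24 was. Ckb was followed by Gucy1b1 (0.963), a subunit of the nitric oxide receptor guanylate cyclase, Tpm4 (0.945), a tropomyosin of the actin cytoskeleton, and Rrbp1 (0.941). Gucy1b1 was also highest at 8 h, with a mean of 381 against 51.1 at 0 h and 155 at 24 h. The late genes had looser companions. Wfdc1 was followed by Dlgap4 (0.916), Ddah1 (0.903), which breaks down methylated arginines that block nitric oxide synthesis, and Mfge8 (0.899), a secreted protein that tags dying cells for uptake. Fam229a was followed by Rpl21 (0.836), a ribosomal protein gene, Me1 (0.819), the cytosolic malic enzyme, and Prdx3 (0.814), a mitochondrial peroxidase. Of these, Me1 had the clearest late change, from a mean of 347 at 0 h and 536 at 8 h to 994 at 24 h. All of these correlations are across arrays that share the same course of treatment and the same 2 replicate numbers, so they are descriptions of likeness only.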

How the data were processed

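The deposited file holds an intensity on a linear scale for every probe set of 10 arrays. How the authors made it is not given in the sources used here. With 2% trimmed at either end, array means ran from 125.2 to 125.27, so the arrays had been brought to a common level. A 2 h array carries no number in its labels and was called replicate 1, since the other is replicate 2. Each array was divided by 0.911 to 1.13 to share the 75th percentile, values under an eighth of it were raised to that floor, and log2 was taken. After removal of 59 control probe sets, those whose mean reached the pooled median of 31.9 were tested (4439).

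Tests used limma 3.58.1 under R 4.3.3 (lmFit, eBayes with an intensity trend, 1 mean per group, 5 residual degrees of freedom), with Benjamini-Hochberg adjustment over all tested probe sets within each comparison and a threshold of 0.05. Replicate numbers were compared with time in the model. For each of the 10 pairs of groups, arrays with the same number deviated together from their group means (r from 0.11 to 0.698). The lowest r was that of 0 and 2 h. A fit with the number as a block was therefore also run. Errors and p-values of changes against 0 h are from the fit without the block unless the block is named. The fits were also run on simulated data, with independent spread on each array and a replicate shift in only some probe sets. Such data lack the shared deviations described above, so these runs cannot show how the fits behave under them. Alternatives were the values as deposited, quantile normalization, other floors, no intensity minimum, no trend and single arrays left out. Symbols were read from the probe annotation of the platform (1 symbol for 7006 probe sets, several for 308, none for 1426), and promoters from RefSeq (GRCr8). All members matched a RefSeq gene by identifier.

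The members and lists were chosen with earlier results of these data known. Named are all members, related genes called in either fit, and the 3 genes of most similar pattern for each member. Every tested gene of the nuclear envelope, inhibitor and surface protein lists is also named. Chosen after their values were seen were Ephb1, Efna1, Lmnb1, Tor1aip1, Lmna, Jup, Taf1c, Bend3, Ctrc, Slc25a1, Atp6ap1 and Opn1mw.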

Additional observations from a re-analysis of the deposited data

How the results depend on the processing

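The probe sets of the members kept similar counts of FSH arrays above both controls under other scalings, floors and filters. When single arrays were left out, these counts ran from 7 to 11 at 2 h, 11 to 11 at 4 h, 10 to 11 at 8 h and 8 to 10 at 24 h. Leaving out an array can only keep or raise such a count, so these ranges say nothing of its stability. The count of members that differed between replicate numbers fell from 3 to 0 without the intensity minimum, 0 without time in the model and 0 without both 2 h arrays, and ran from 0 to 4 when single arrays were left out (0 without either 2 h or either 4 h array), a step that also removes that time from the comparison. Over these alternatives the adjusted p of the called probe sets reached 0.369 and 0.458 for Cd24 and 0.472 for Ephb3. The Emd probe set X98377_at, which was not called, changed sign, with a log2 difference of 0.0486 for the values as deposited, 0.0151 with the floor at the percentile divided by 16 and 0.13 without both 2 h arrays, and from -0.11 to 0.13 when single arrays were left out. The cause was not tested.

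With the replicate block 1 related gene, Polr2h, was called at 4 h, and 1, the same gene, without the intensity minimum. Paired in this way, the whole table had 54 called probe sets at 2 h, 131 at 4 h, 119 at 8 h and 4 at 24 h, against 30, 38, 34 and 0 without the block. At 24 h 2 were called with quantile normalization and 4 without the intensity minimum. When single arrays were left out, the whole-table counts ran from 0 to 31 at 2 h, 8 to 28 at 4 h and 5 to 26 at 8 h, each lowest without FSH replicate 1 of that time. Each such fit has a group of 1 array, which is assumed to vary like the others. The floor limits the size of every change from a control under it, with both controls under it for Ephb3, Kazn and X98377_at of Emd, and 1 control for M57664_g_at of Ckb and rc_AI171462_s_at of Cd24.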
